A study of Mus musculus with 2 samples.

Results

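Histone modifiers and chromatin remodellers were followed as a set of 94 genes out of 55536 genes measured in mouse hippocampus. A gene belonged to the set when it had at least 1 annotated protein-coding transcript and a symbol of the Kmt2, Kmt5, Kdm, Hdac, Sirt, Setd, Ezh, Kat, Ehmt, Suv39h, Chd, Smarc or Arid families. Kdm5c, Kdm5d and Kdm6a were left out by the rule, and no measured value entered it. The RNA came from a hippocampal layer of B6CASTF1/J males at an age of 36 days, the F1 hybrid of the C57BL/6J and CAST/EiJ strains, with no treatment named in the labels. A single group of 2 biological replicates was sequenced as total RNA, from 300 ng each, with ERCC spike-in RNA added, so no condition could be compared with another. The replicates carried different biosample identifiers but the same donor identifier, the labels did not say which layer or subfield was dissected, and every level below is summed over the alleles of both parental strains.

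DNA in the nucleus is wound around histone proteins, and the tails of these proteins carry methyl and acetyl groups that mark genes as active or silent. Methyltransferases and acetyltransferases write the marks, demethylases and deacetylases remove them, and remodellers of the CHD, SWI/SNF and ISWI classes use ATP to slide or evict the histones. In the hippocampus several of these enzymes are known for their part in neuronal gene activity and memory, and mutations in many of them cause human neurodevelopmental disorders.

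The libraries held 2.87e+07 and 2.96e+07 expected read counts assigned to genes. Markers fixed for the tissue were present in both libraries: Camk2a of excitatory neurons stood at 1347 and 1414 TPM (a level corrected for transcript length and library size), and all 4 dentate granule cell markers and all 4 CA1 markers were above 1 TPM. The make-up of the libraries was not the same. All 8 choroid plexus markers were higher in replicate 2, with a summed level of 8.67 TPM in replicate 1 and 191 TPM in replicate 2, mostly from Ttr. The 4 dentate granule markers summed to 94.8 and 115 TPM, and the 4 CA1 markers to 254 and 212 TPM. The part of these differences in any result below was not tested. In bulk tissue, fewer cells of a type and less RNA per cell cannot be told apart.

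Nearly the whole set was expressed. In both libraries 92 of the 94 genes (97.9%) reached 1 TPM, against 57.8% of the 22028 protein-coding genes of the annotation. The median level of these 92 genes was 22.4 TPM, and of all 94 genes 22.0 TPM, beside 15.1 TPM for the 12724 protein-coding genes at or above 1 TPM. Of the 94 genes, 62 lay between 10 and 50 TPM, 13 above 50 TPM and 19 below 10 TPM. The same shares were not computed over all expressed protein-coding genes, so these counts do not set the genes of the set apart. Levels and their order are over all transcripts of a gene, coding or not, unless protein-coding transcripts are named. The exceptions were Arid3c and Kdm4d. Arid3c (chr4:41723836-41731142 of mm10), an AT-rich DNA-binding factor, had 0 expected counts in each library, where a count of 0 allows up to 3 counts, or 0.105 and 0.101 CPM. Kdm4d (chr9:14462548-14500482), an H3K9 demethylase known mainly from testis, had 0.58 and 0.50 TPM in the libraries, from 31 and 24.4 expected counts that were partly shared with other genes.

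**Figure D1:**
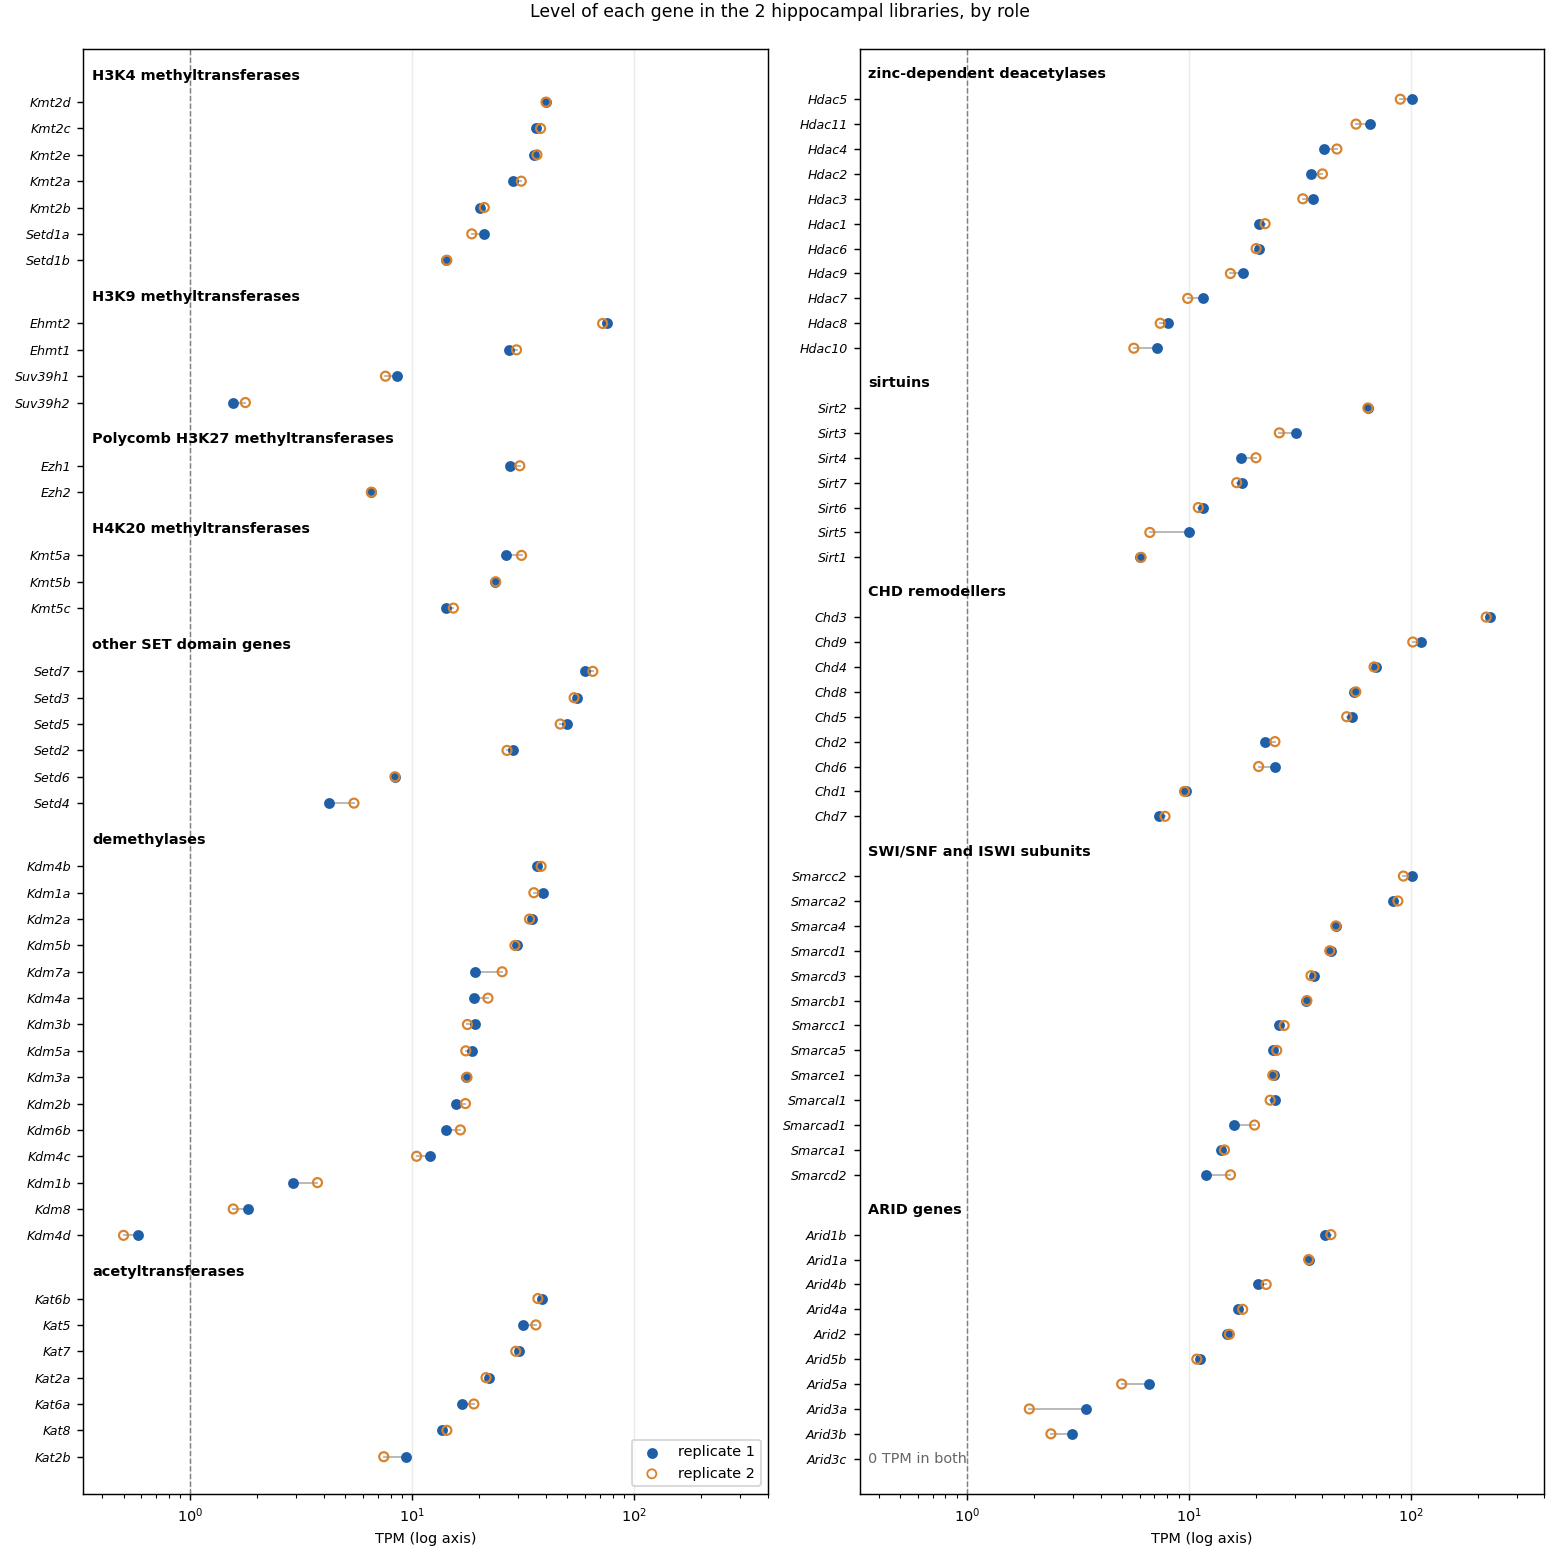
TPM (log axis) of each of the 94 genes in replicate 1 (filled) and replicate 2 (open), grouped by role and ordered by mean within a role, with a dashed line at 1 TPM. Most genes sit between 10 and 50 TPM with the libraries close together, and Chd3 stands at the top with 228 and 219 TPM.

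Enzymes that methylate lysine 4 of histone H3, the mark of active promoters and enhancers, were all present within a small range. Kmt2d, the enhancer methyltransferase mutated in Kabuki syndrome, had 39.9 and 40.1 TPM in replicates 1 and 2. Kmt2c, its partner in the same class of complex, had 36.1 and 37.9 TPM. Kmt2e, a relative with little enzymatic activity of its own, had 35.5 and 36.5 TPM. Kmt2a had 28.3 and 31.0 TPM and its paralogue Kmt2b had 20.3 and 21.1 TPM, a ratio of 1.43 ± 0.0501 (SD, n = 2). On protein-coding transcripts that ratio was 2.19 and 2.33. Setd1a had 21.01 and 18.5 TPM, from reads partly shared with another gene. Setd1b, the other catalytic subunit of the SET1 complexes, was lowest with 14.2 and 14.3 TPM. The ratio of Kmt2c to Kmt2d was 0.905 in replicate 1 and 0.945 in replicate 2. In the second deposited transcript table, another estimate from the same reads, it was 0.781 and 0.727, and on protein-coding transcripts with the annotation's basic tag Kmt2c had 12.1 and 12.5 TPM against 27.3 and 27.9 TPM for Kmt2d.

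Among the H3K9 methyltransferases, which mark silent chromatin, the enzymes known from euchromatin were above those of heterochromatin in both libraries. Ehmt2 (G9a) had 75.2 and 72.1 TPM. Its dimer partner Ehmt1 (GLP), the Kleefstra syndrome gene, had 27.2 and 29.5 TPM, which gave a ratio of Ehmt2 to Ehmt1 of 2.77 and 2.44. Suv39h1, an X-linked enzyme of pericentric heterochromatin, had 8.55 and 7.57 TPM. Suv39h2 had 1.55 and 1.77 TPM. The ratio of Suv39h1 to Suv39h2 was 5.52 in replicate 1 and 4.28 in replicate 2. On protein-coding transcripts it was 12.1 and 3.97, with Suv39h2 at only 0.60 TPM in replicate 1.

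The Polycomb enzymes for lysine 27 of histone H3 were led by the form that non-dividing cells are known to keep. Ezh1 (chr11:101191115-101226463) had 27.6 and 30.5 TPM. Ezh2 (chr6:47530139-47595341), the form of dividing cells, had 6.53 and 6.54 TPM. Ezh1 was thus 4.23-fold and 4.67-fold above Ezh2, and 6.02-fold and 7.92-fold when only protein-coding transcripts were counted. Proliferation markers were low but detected. Mki67 had 0.57 and 0.67 TPM from 116 and 144 counts, and Top2a had 1.17 and 1.06 TPM from 60 and 86 counts. A link between these markers and the ratio of Ezh1 to Ezh2 was not tested.

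H4K20 methyltransferases and the remaining SET domain genes covered a wider span. Kmt5a, which places the first methyl group on lysine 20 of histone H4, had 26.4 and 31.1 TPM. Kmt5b, which adds the further groups, had 23.7 and 23.8 TPM. Kmt5c, its paralogue, had 14.1 and 15.3 TPM. Kmt5b over Kmt5c was 1.68 and 1.55, and 3.95 and 2.93 on protein-coding transcripts. Setd7, a methyltransferase with histone and many non-histone substrates, had 60.0 and 65.1 TPM. Setd3, known as the actin histidine methyltransferase, had 55.5 and 53.6 TPM. Setd5, an intellectual disability gene, had 49.9 and 46.4 TPM. Setd2, which trimethylates lysine 36 of histone H3, had 28.3 and 26.7 TPM. Setd6, a methyltransferase of the NF-kB subunit RelA, had 8.37 and 8.35 TPM. Setd4 was lowest in this group with 4.23 and 5.46 TPM, from 120 and 121 counts.

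Demethylases ranged from 37.3 TPM down to the barely detected Kdm4d. Kdm4b, an H3K9 and H3K36 demethylase, had 36.5 and 38.1 TPM. Kdm1a (LSD1), the flavin-dependent H3K4 demethylase of the CoREST complex, had 38.9 and 35.3 TPM. Kdm2a, a CpG-island H3K36 demethylase, had 34.7 and 33.7 TPM. The ratio of Kdm1a to its paralogue Kdm1b, at 2.90 and 3.74 TPM, was the largest of the 24 pairs of related genes examined, 13.4 in replicate 1 and 9.44 in replicate 2. Kdm2a exceeded Kdm2b, a subunit of a Polycomb complex at 15.8 and 17.4 TPM, by 2.19-fold and 1.94-fold. Kdm5b, an H3K4 demethylase, had 29.6 and 29.02 TPM, above Kdm5a at 18.5 and 17.4 TPM. The ratio of Kdm5a to Kdm5b was 0.624 and 0.6003, and 0.296 and 0.273 on protein-coding transcripts alone. Kdm3b and Kdm3a, H3K9 demethylases, were level with each other, at 19.2 and 17.7 TPM for Kdm3b and 17.4 and 17.6 TPM for Kdm3a. Kdm7a, which removes methyl groups from H3K9 and H3K27, had 19.1 and 25.4 TPM. Kdm4a had 19.0 and 21.9 TPM and Kdm4c had 12.1 and 10.5 TPM. Kdm6b, the H3K27 demethylase induced by neuronal activity, had 14.2 and 16.5 TPM. Kdm8 was low at 1.81 and 1.56 TPM. Apart from Kdm1b, Kdm8 and Kdm4d, every demethylase was above 10 TPM in both libraries.

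Kdm1a is known for a very short exon that neurons splice in, and this exon was present in a minority of its transcripts. The inclusion of an exon is given here as the TPM of annotated transcripts with it, as a percentage of those transcripts plus the ones that join its neighbours directly. The 12-base exon at chr4:136563438-136563449 (minus strand) had an inclusion of 26.1% in replicate 1 and 17.3% in replicate 2. Only Kdm1a-208 was counted as including it, at 8.89 and 5.39 TPM, and that transcript lacks the annotation's basic tag. The percentage therefore rests on the estimate for 1 transcript. A second alternative exon of 60 bases at chr4:136582040-136582099 was in 54.5% and 54.0%, with only Kdm1a-202 counted as including it. Both lengths are multiples of 3, so the reading frame continues across them. The sequences are shown because they are the segments by which the Kdm1a proteins of this tissue would differ, with the exon in capitals and 15 bases of the neighbouring coding exons in lower case, from the GENCODE M21 transcripts.
Kdm1a 12-base exon: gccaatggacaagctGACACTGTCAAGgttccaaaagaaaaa
Kdm1a 60-base exon: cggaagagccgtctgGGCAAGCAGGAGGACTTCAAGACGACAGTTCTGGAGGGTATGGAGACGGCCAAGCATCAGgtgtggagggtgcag

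Acetyltransferases of the Kat families were all expressed, between 8.42 and 37.5 TPM on average. Kat6b (MORF), a catalytic subunit mutated in developmental syndromes, had 38.2 and 36.8 TPM. Kat5 (Tip60), the catalytic subunit of NuA4, had 31.7 and 36.1 TPM. Kat7 (HBO1) had 30.2 and 29.3 TPM. Kat6a (MOZ), the paralogue of Kat6b, had 16.7 and 19.0 TPM, a ratio to Kat6b of 0.438 and 0.515. Kat2a (GCN5) had 22.1 and 21.5 TPM, and Kat2b (PCAF), which can take its place in the SAGA complex, had 9.39 and 7.44 TPM. Their ratio, Kat2b over Kat2a, was 0.425 in replicate 1 and 0.346 in replicate 2. Kat8, the H4K16 acetyltransferase, had 13.6 and 14.3 TPM.

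Zinc-dependent deacetylases were led by Hdac5 and Hdac11 over all transcripts, and by Hdac11 on protein-coding transcripts. Hdac5 (chr11:102194432-102230166), a class IIa protein that shuttles between nucleus and cytoplasm with neuronal activity, had 101 and 89.7 TPM. Hdac11 (chr6:91156665-91174692), the only class IV enzyme, had 65.7 and 56.7 TPM. Hdac4, another class IIa gene, had 40.7 and 46.5 TPM. Of the class I enzymes, Hdac2 had 35.7 and 40.0 TPM, Hdac3 had 36.1 and 32.6 TPM and Hdac1 had 20.8 and 22.1 TPM, the last from partly shared reads. On protein-coding transcripts Hdac2 had 34.1 and 37.2 TPM, above Hdac5 at 25.4 and 24.9 TPM, while Hdac11 had 53.4 and 47.5 TPM. The ratio of Hdac1 to Hdac2, the pair that shares the NuRD, Sin3 and CoREST complexes, was 0.582 in replicate 1 and 0.552 in replicate 2, and 0.314 and 0.295 on protein-coding transcripts. Hdac6, the X-linked tubulin deacetylase, had 20.7 and 20.1 TPM. Hdac9 had 17.6 and 15.4 TPM, Hdac7 had 11.6 and 9.88 TPM, Hdac8 had 8.07 and 7.43 TPM and the polyamine deacetylase Hdac10 had 7.20 and 5.65 TPM. Hdac5 exceeded Hdac4 by 2.48-fold and 1.93-fold over all transcripts, but on protein-coding transcripts the order turned, with ratios of 0.761 and 0.619, and in the second table it was 1.32 and 1.28.

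Sirtuins, the NAD-dependent deacylases, were led by Sirt2 and Sirt3, over all transcripts and on protein-coding transcripts. Sirt2, a tubulin deacetylase abundant in myelinating cells, had 64.2 and 64.1 TPM. Mitochondrial Sirt3 had 30.4 and 25.6 TPM, and mitochondrial Sirt4 had 17.3 and 20.1 TPM. Only 1.32 and 1.02 TPM of Sirt4 was on protein-coding transcripts, the lowest coding level of the 7 sirtuins in the first table. Nucleolar Sirt7 had 17.4 and 16.4 TPM and chromatin-bound Sirt6 had 11.6 and 11.0 TPM. Sirt5, the mitochondrial desuccinylase, had 9.99 and 6.67 TPM although its counts were 209 and 194. Sirt1, the nuclear founder of the family, was lowest over all transcripts with 6.00 and 6.09 TPM. Sirt1 and Sirt5 were close to each other in replicate 2 and farther apart in replicate 1.

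CHD remodellers held the highest gene of the set. Chd3 (chr11:69343273-69369406), a helicase of the NuRD complex, had 228 and 219 TPM, a mean of 223 ± 6.55 TPM (SD, n = 2). Chd4, the helicase that takes the same place in NuRD, had 69.7 and 68.3 TPM, and Chd5, a paralogue known from neurons, had 54.2 and 51.4 TPM. Chd4 was therefore at 0.306 and 0.312 of the Chd3 level and Chd5 at 0.238 and 0.235. Chd9 (chr8:90828352-91054516) had 111 and 102 TPM, but most of this came from a short transcript described below. Chd8, an autism gene, had 55.5 and 56.5 TPM. Chd2 had 22.1 and 24.4 TPM and Chd6 had 24.5 and 20.6 TPM. Chd1, which binds H3K4 trimethylation, had 9.69 and 9.56 TPM and Chd7, the CHARGE syndrome gene, had 7.30 and 7.81 TPM.

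The Smarc genes, which include subunits of the SWI/SNF (BAF) and ISWI complexes, were all above 10 TPM, and the scaffold Smarcc2 led them. Smarcc2 (BAF170; chr10:128459248-128490482), a core scaffold, had 101 and 92.6 TPM, against 25.5 and 26.9 TPM for Smarcc1 (BAF155), a ratio of 3.98 and 3.45. The ATPase gene Smarca2 (BRM) had 83.1 and 87.5 TPM and its alternative Smarca4 (BRG1) had 45.9 and 46.0 TPM. Their ratio was 1.81 and 1.90 over all transcripts, and 0.981 and 1.10 on protein-coding transcripts. Smarcd1 had 43.6 and 43.2 TPM, Smarcd3 (BAF60C) had 36.5 and 35.5 TPM, and Smarcd2 had 11.9 and 15.4 TPM. Smarcd3 stood at 0.836 and 0.823 of Smarcd1, while in the second table it was above Smarcd1 by 1.19-fold and 1.14-fold. Smarcb1, the core subunit lost in rhabdoid tumours, had 33.9 and 34.0 TPM and Smarce1 had 24.2 and 23.9 TPM. The ISWI ATPase Smarca5 had 24.0 and 24.9 TPM and its X-linked relative Smarca1 had 13.9 and 14.5 TPM, a ratio of Smarca1 to Smarca5 of 0.579 and 0.581, and of 0.921 and 0.993 on protein-coding transcripts. For the ATPase pairs of both complexes the distance between the forms therefore depended on which transcripts were counted. The ratio of the Smarcc scaffolds changed less, to 3.55 and 3.43 on protein-coding transcripts, but in the second table it was 5.11 and 4.68. In that table Smarca2 over Smarca4 was 2.26 and 2.56, and Smarca1 over Smarca5 was 0.581 and 0.542. Smarcal1, an annealing helicase, had 24.6 and 23.2 TPM and Smarcad1 had 16.0 and 19.8 TPM.

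Several SWI/SNF and ISWI transcripts also differed by whole coding exons whose length is a multiple of 3. In Smarcc2 a 93-base exon at chr10:128481682-128481774 (plus strand) had an inclusion of 58.3% and 58.4%, with only Smarcc2-202 counted as including it. In Smarca4 a 99-base exon at chr9:21677953-21678051 (plus strand) had 9.56% and 9.34%. In Smarca1 a 36-base exon at chrX:47855578-47855613 (minus strand) had 26.0% and 28.1%. The Smarca4 and Smarca1 exons each rested on 1 including transcript without the basic tag. These were Smarca4-203 (4.39 and 4.29 TPM) and Smarca1-206 (3.54 and 3.94 TPM). The exons are shown in the same way, exon in capitals, because each was split between transcripts in both libraries.
Smarcc2 93-base exon: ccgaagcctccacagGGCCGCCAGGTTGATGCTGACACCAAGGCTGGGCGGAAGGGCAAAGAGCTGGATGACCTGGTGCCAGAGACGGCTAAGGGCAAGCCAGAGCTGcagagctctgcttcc
Smarca4 99-base exon: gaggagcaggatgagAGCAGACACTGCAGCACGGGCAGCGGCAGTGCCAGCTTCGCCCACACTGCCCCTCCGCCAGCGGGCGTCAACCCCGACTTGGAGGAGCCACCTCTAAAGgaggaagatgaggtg
Smarca1 36-base exon: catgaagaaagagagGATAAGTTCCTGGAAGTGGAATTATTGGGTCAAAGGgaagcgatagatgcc

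ARID genes, which hold AT-rich DNA-binding domains, ranged from the BAF subunits Arid1b and Arid1a at the top to the ARID3 factors at the bottom. Arid1b, the Coffin-Siris syndrome gene, had 41.2 and 43.7 TPM. Arid1a, its mutually exclusive alternative in BAF, had 34.7 and 34.7 TPM, so that Arid1b was 1.19-fold and 1.26-fold higher. Arid4b and Arid4a, subunits of the Sin3 complex, had 20.5 and 22.3 TPM and 16.6 and 17.5 TPM. Arid2, the PBAF subunit, had 14.8 and 15.2 TPM and Arid5b had 11.3 and 10.9 TPM. Arid5a had 6.64 and 4.98 TPM. Arid3b had 2.96 and 2.39 TPM, and Arid3a had 3.45 and 1.91 TPM from 200 and 190 counts.

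Across the 24 pairs of related genes, 17 were at least 1.5-fold apart in the same direction in both libraries of the gene table. The order within a pair was the same in replicate 1 and replicate 2 in every pair of the gene table, although for Kdm3b over Kdm3a the ratio came down to 1.00 in replicate 2. Summing only protein-coding transcripts turned the order in both libraries in 2 pairs, Hdac5 over Hdac4 and Arid4b over Arid4a, and for Smarca2 over Smarca4 in replicate 1 alone. Kdm3b over Kdm3a instead widened to 2.02 and 1.601.

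**Figure D2:**
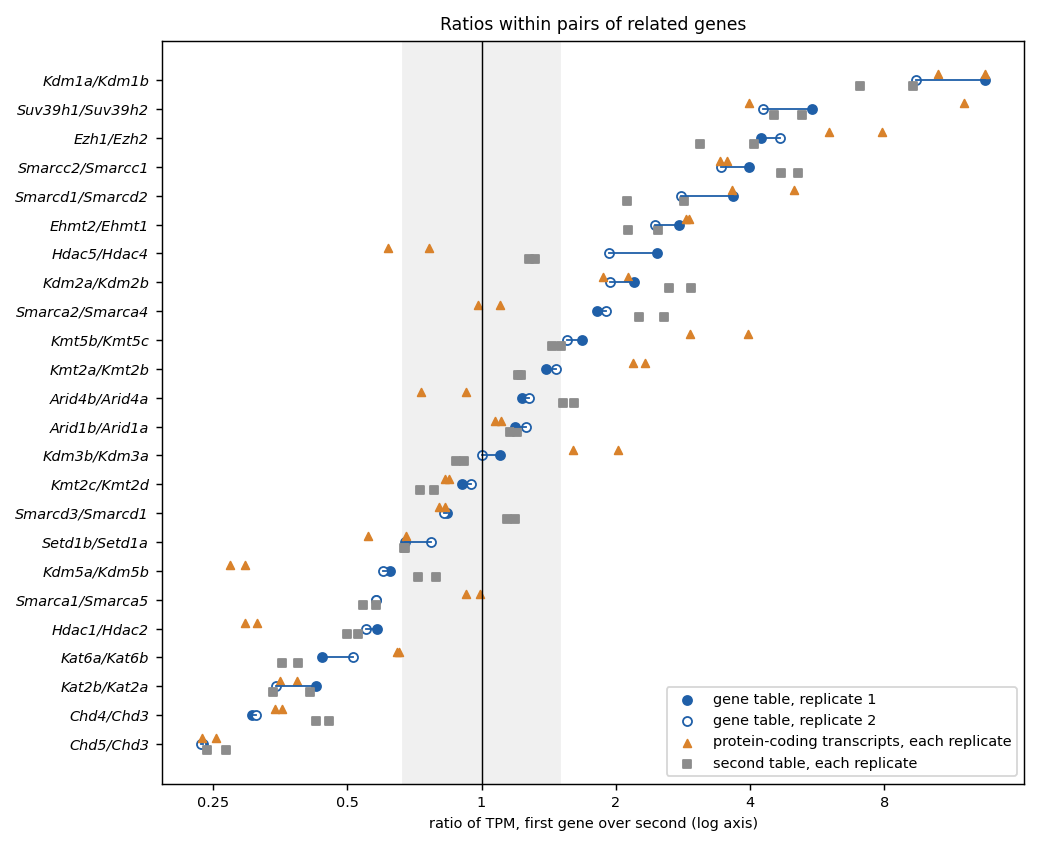
Ratio of TPM (log axis) within 24 pairs of related genes in replicate 1 (filled circles) and replicate 2 (open circles) of the gene table, with the same ratio on protein-coding transcripts (triangles) and in the second table (squares). The grey band spans 1.5-fold either way, and 17 pairs lie outside it in both libraries.

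Partner genes of these enzymes that the family names do not cover were given by lists of 109 further genes. Of these 107 were at or above 1 TPM in both libraries. Among 27 Polycomb partners, with a median of 17.0 TPM, Cbx6, a reader of the Polycomb mark, was highest with 144 and 145 TPM, followed by the histone-binding Rbbp7 with 58.7 and 60.9 TPM and Rbbp4 with 47.5 and 50.9 TPM. Phf19 was below the limit with 0.82 and 0.42 TPM. Suz12 and Eed, the obligate partners of Ezh1 and Ezh2, had 15.9 and 16.3 TPM and 19.0 and 16.4 TPM. The 9 partners of the H3K4 methyltransferases had a median of 22.8 TPM, led by Hcfc1 (29.8 and 30.9 TPM), Ncoa6 (29.1 and 29.8 TPM) and Men1 (29.7 and 27.6 TPM). The 18 corepressor partners of the deacetylases had a median of 32.0 TPM. Ncor1, a scaffold that recruits Hdac3, had 122 and 127 TPM, and Sin3b had 67.5 and 72.3 TPM. Rest, the repressor of neuronal genes, had 1.90 and 1.63 TPM.

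Subunits known from neuronal BAF were present beside those of progenitor BAF. Actl6b (BAF53B), the neuronal actin-related subunit, had 51.0 and 54.8 TPM, against 6.04 and 8.48 TPM for the progenitor form Actl6a, a ratio of 8.44 and 6.46. Dpf1 had 41.9 and 42.9 TPM, Ss18l1 (CREST) had 17.7 and 17.3 TPM and Dpf3 had 8.94 and 11.1 TPM. Of the progenitor list Dpf2 had 39.9 and 42.6 TPM, Phf10 had 23.0 and 23.6 TPM and Ss18 had 13.7 and 16.7 TPM. Other pairs of neuronal over progenitor forms were less far above 1, with Ss18l1 over Ss18 at 1.29 and 1.04 and Dpf1 over Phf10 at 1.82 and 1.82. Dpf3 over Phf10 lay on the other side of 1, at 0.389 and 0.471. No ratio was taken to Dpf2, which stood close to Dpf1 and above Dpf3 in both libraries. Other BAF and PBAF subunits, 9 genes with a median of 23.9 TPM, were led by Bcl11b (57.7 and 52.9 TPM), Brd9 (51.2 and 46.5 TPM) and Bcl11a (50.3 and 44.8 TPM).

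The other writers, erasers and remodellers lay in the same range. Among 11 further acetyltransferases and partners, with a median of 22.1 TPM, Trrap had 68.8 and 71.5 TPM, Naa60 had 44.0 and 48.6 TPM and the CBP gene Crebbp had 36.1 and 38.1 TPM. Among 10 further lysine methyltransferases, with a median of 27.3 TPM, the H3K36 enzymes led, Nsd1 with 51.8 and 51.7 TPM, Nsd2 with 50.9 and 49.5 TPM and Nsd3 with 37.1 and 37.7 TPM. Among 6 further demethylases the highest were Jmjd1c with 41.0 and 43.5 TPM, Phf2 with 14.9 and 16.4 TPM and Phf8 with 14.8 and 14.1 TPM. Among 11 further remodellers Atrx had 77.9 and 76.3 TPM, Srcap had 50.4 and 45.2 TPM, Ep400 had 40.0 and 44.6 TPM, and Baz1a was lowest with 1.10 and 0.89 TPM.

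The replicates were compared to see how far these levels repeat between libraries. Rounded expected counts were scaled by TMM, a factor for library composition, and tested gene by gene with an exact two-sided binomial test, adjusted by Benjamini-Hochberg over 18270 genes with a mean count of at least 10. This test measures counting error between these 2 libraries and nothing about conditions. A gene was called apart at an adjusted p under 0.05 and at least 1.5-fold. None of the 93 genes of the set that could be tested was apart, against 1.89% of all genes tested, while 25 of the 93 had an unadjusted p under 0.05, against 21.8%. At a mean count of at least 100, 0 of 90 genes of the set were apart, against 0.901% of all 12541 genes at that depth. A background that low leaves little room for a difference. DESeq2 size factors in place of TMM also gave 0. Within 1.2-fold lay 88 of the 93, against 76.6% of all genes, although a deeper gene varies less by counting alone. The median log2 ratio, replicate 2 over replicate 1, was 0.02 over the set and -0.00 over all genes.

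Without a minimum fold, 18 of the 93 genes passed the adjusted threshold, 15 higher in replicate 2 and 3 higher in replicate 1, against 6.64% and 4.73% of all genes. A deeper gene passes this counting test at a smaller fold. At a mean count of at least 100, 18 of 90 genes of the set passed, 15 of them higher in replicate 2. Of all 12541 genes at that depth 1999 passed, 57.1% of them higher in replicate 2. Scaled to the ERCC totals, 21 of the 93 passed and all 21 were higher in replicate 2. That scaling moved the median of all genes to 0.04 and the share of calls higher in replicate 2 from 58.4% to 78.5%. Smarcd2 (chr11:106263179-106272972) was farthest, with 441 and 634 counts, 1.40-fold higher in replicate 2 (95% counting interval 1.24 to 1.58, exact binomial test, adjusted p = 2.22e-06). Its counts in the second table, 457 and 643, repeated this order, but its TPM there went the other way, 31.4 and 24.0. Kdm7a (chr6:39136623-39206789) had 3544 and 4939 counts, 1.35-fold higher in replicate 2 (1.30 to 1.42, exact binomial test, adjusted p = 4.28e-41). Kmt5a and Smarcad1 followed, 1.24-fold and 1.23-fold higher in replicate 2. Kdm6b was 1.18-fold and Hdac4 1.17-fold higher in replicate 2. The 3 genes higher in replicate 1 were Hdac11 (1.09-fold), Chd5 (1.07-fold) and Hdac5 (1.07-fold). The remaining calls in replicate 2 were Kdm4a, Arid2, Kdm2b, Hdac2, Kdm4b, Ezh1, Kmt2a, Kmt2c and Kmt2d, all under 1.2-fold. Under ERCC totals the 3 genes higher in replicate 1 no longer passed. By role, all 7 H3K4 methyltransferases had a positive log2 ratio, with a median of 0.06, and 3 of 11 zinc-dependent deacetylases did, with a median of -0.10. In TPM these counts were 6 and 3. They stayed at 7 and 3 under DESeq2 size factors and ERCC totals. Those 2 scalings move every log2 ratio upward from TMM by a common amount, so they could not lower either count. Over all genes tested 49.7% were positive under TMM, and over the set 56 of 93. The 2 roles named do not stand for the others. SWI/SNF and ISWI subunits had 10 of 13 positive and other SET domain genes 2 of 6. The largest median was that of the H4K20 methyltransferases, 0.20, with 2 of 3 positive. Of the 7 H3K4 methyltransferases 3 passed the adjusted threshold, and of the 11 deacetylases 4. Genes of a role come from the same 2 libraries, so they are no replicates of a direction. These differences by role stand beside the choroid plexus, dentate and CA1 marker differences given above.

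**Figure D3:**
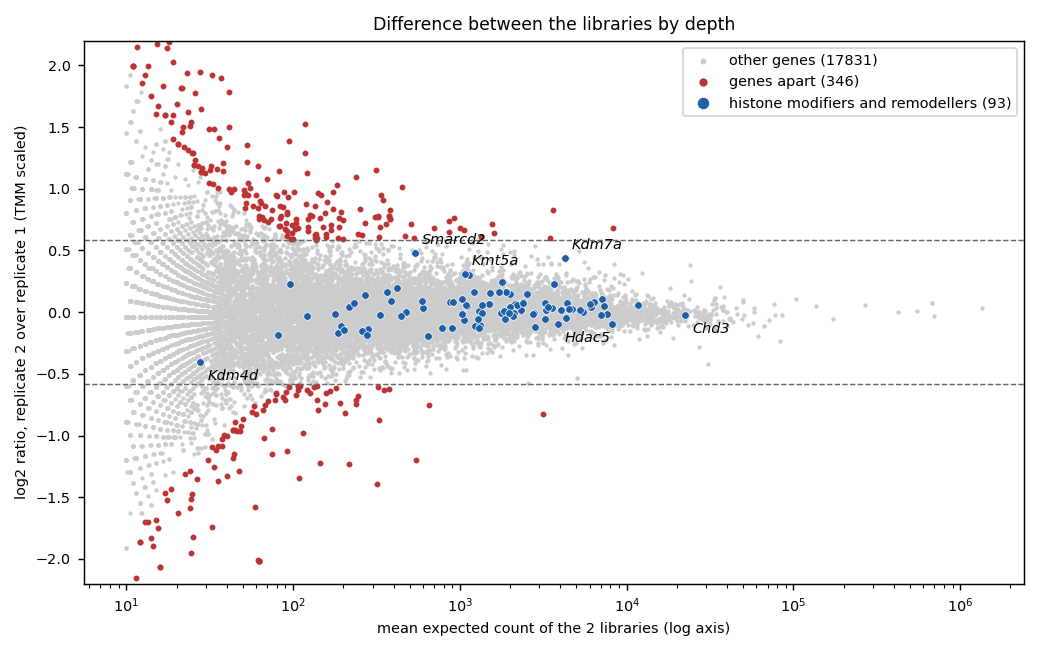
Log2 ratio of TMM-scaled counts, replicate 2 over replicate 1, against the mean expected count (log axis) for 18270 genes, with the 93 genes of the set in blue, genes called apart in red and dashed lines at 1.5-fold. No blue point lies beyond the dashed lines, Smarcd2 and Kdm7a come nearest above and Kdm4d below, and 59 genes fall outside the plotted range.

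TPM repeated less closely than counts for a few genes. In TPM 11 of the 92 expressed genes were over 1.2-fold apart between the libraries, but in scaled counts 4 were, and 3 were in both. The same share in TPM was not computed over all expressed genes, so 11 of 92 does not set these genes apart. Arid3a and Sirt5 are examples already given, where nearly equal counts were divided by different estimated transcript lengths.

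Transcripts that are not annotated as protein-coding held a large share of the level of these genes. The 94 genes have 850 annotated transcripts, a median of 8 per gene beside 5 for expressed protein-coding genes. In the first transcript table, which matches the gene table, 26.96% of the summed TPM of the set in replicate 1 and 26.7% in replicate 2 was on transcripts without a protein-coding label, against 16.4% in each library over all expressed protein-coding genes. Retained-intron transcripts made up 15.5% and 15.6%, processed transcripts 8.30% and 7.71%, and transcripts marked for nonsense-mediated decay 3.16% and 3.40%. Without Chd9 the share was 24.5% in each library. Counted in reads rather than in TPM, the share was 10.1% over both libraries, against 8.27% and 8.23% over all expressed protein-coding genes, since TPM divides counts by transcript length.

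Over 50% of the TPM was on such transcripts in 13 of the 92 expressed genes in both libraries, against 9.45% of expressed protein-coding genes. The 13 were Chd9, Hdac5, Hdac7, Hdac10, Sirt4, Sirt7, Setd4, Setd5, Setd6, Kdm3a, Kdm5a, Kmt5c and Arid5a. Chd9 is the clearest case. A processed transcript of 759 bases and 3 exons, Chd9-206, which spans chr8:90828827-90891521 at the 5′ end of the gene, held 77.5% of its TPM in replicate 1 and 75.3% in replicate 2, and 80.8% and 80.2% in the second table. Its protein-coding transcripts came to 16.0 and 15.4 TPM, which moved Chd9 from rank 2 of the set to rank 49. For Hdac5 the protein-coding transcripts came to 25.4 and 24.9 TPM, and its rank went from 4 to 29. The leading coding transcript Hdac5-204 held 17.4% in each library, and retained-intron transcripts together held 45.97% and 42.5%. For Smarca2 the decay-marked Smarca2-202 held 20.5% and 22.3% of the TPM, a little above the coding Smarca2-201 in each library. At the other end, Smarca4, Kmt2d and Smarca1 were among 7 expressed genes with no TPM outside protein-coding transcripts in the first table. Chd3 and Smarcc2 kept the highest protein-coding levels, 173 and 168 TPM for Chd3 and 82.7 and 81.7 TPM for Smarcc2.

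**Figure D4:**
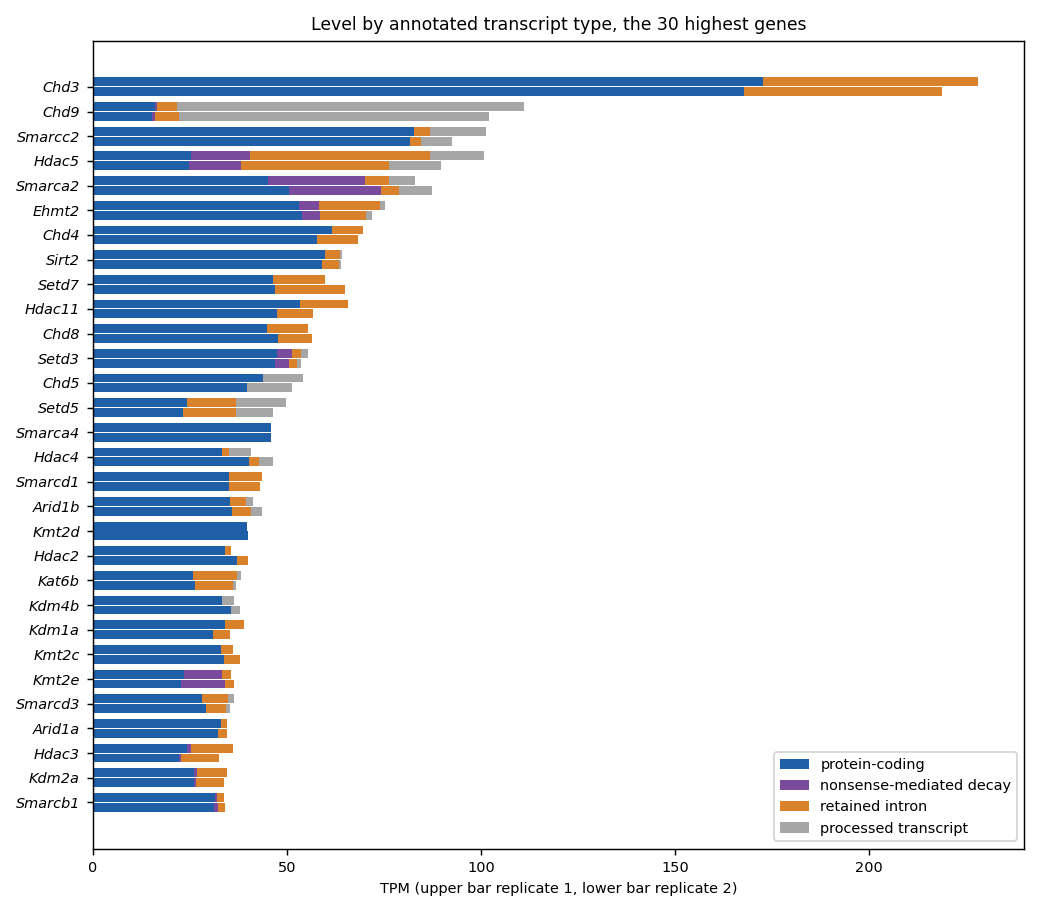
TPM of the 30 highest genes of the set in replicate 1 (upper bar) and replicate 2 (lower bar), divided by annotated transcript type in the first transcript table. Chd9 is mostly processed transcript and Hdac5 mostly retained intron and decay-marked transcript, while Smarca4 and Kmt2d are wholly protein-coding.

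The second deposited transcript table estimates the same libraries by another method, so it shows what depends on the estimate and is no replicate. Its TPM was higher for all 92 expressed genes of the set, by a median of 1.73-fold over the set and 1.69-fold over all expressed protein-coding genes. Past 1.5-fold in both libraries were 73 of 92 genes, against 78.1%, all of them higher in the second table. After centring on the median of protein-coding genes 2 remained, against 4.57%. They were Sirt5, with 31.0 and 28.1 TPM in the second table, and Smarce1, with 67.6 and 68.4 TPM. The folds ran from 1.16 for Chd3 to 3.62 for Sirt5.

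The leading transcript, the one with the most TPM, was less stable than the gene level. It was the same in both tables and both libraries for 58 of 92 genes (63.0%), against 68.7% of expressed protein-coding genes. Within the first table it was the same in both libraries for 75 of 92 (81.5%), against 89.4%, and the set has more annotated transcripts per gene, as given above. It was not protein-coding in both libraries for 6 genes (6.52%), against 6%. These were Chd9, Smarca2, Setd4, Sirt4, Hdac7 and Hdac10. Among the 86 genes with a mean of at least 5 TPM, 30 had some difference of leading transcript. In 14 of them the libraries differed within the first table: Arid5a, Chd8, Ehmt1, Ezh1, Hdac5, Hdac10, Kat5, Kdm3a, Kmt5b, Kmt5c, Setd5, Setd6, Sirt4 and Sirt5. In Ezh1, for example, Ezh1-202 held 41.3% in replicate 1 and 15.8% in replicate 2, and Ezh1-203 held 17.4% and 41.2%, while the second table gave Ezh1-202 47.8% and 46.4%. In Kdm3a, Kdm3a-201 held 45.4% in replicate 1 and 6.64% in replicate 2. In the other 16 the libraries agreed within the first table: Chd4, Setd1a, Ehmt2, Ezh2, Smarca2, Smarcal1, Smarcd2, Kdm2b, Setd3, Sirt1, Sirt2, Sirt3, Sirt7, Hdac4, Hdac6 and Hdac7. Sirt3 shows the widest swap between tables, with Sirt3-202 at 77.7% and 85.7% in the first table and Sirt3-201 at 76.5% and 78.9% in the second. For Setd3 the short Setd3-204 of 636 bases held 5.39% and 6.45% in the first table and 43.4% and 42.0% in the second.

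Coding exons that some transcripts skip could be followed in all 4 estimates. With at least 5 TPM over the including and skipping transcripts, 77 such exons were found in 43 genes. An inclusion between 5% and 95% in both tables and both libraries was seen for 30 exons in 26 genes, and for 18 of the 30 the 4 estimates lay within 10 percentage points of each other. Of the 30, 25 had a length that is a multiple of 3, beside 19 of the other 47. The limits of 5 TPM, 5% and 95% were chosen after the values were seen. Exons of other genes were not examined, so these counts do not set the genes of the set apart. The exons printed above are among the 30. In the second table the 12-base Kdm1a exon had 28.1% and 22.5%, the 60-base Kdm1a exon 58.0% and 54.4%, the Smarcc2 exon 55.4% and 53.1%, the Smarca1 exon 23.0% and 26.7%, and the Smarca4 exon 16.9% and 16.4%. For the 12-base exon the libraries differed by more than the tables did. In Arid1b a 90-base exon had an inclusion of 77.3% and 74.1% in the first table and 80.9% and 79.1% in the second. In Kmt2d a 48-base exon had 20.2% and 24.0%, then 21.4% and 29.2%. It rested on 1 including transcript, Kmt2d-204, at 6.90 and 8.80 TPM in the first table. In Kmt2a a 99-base exon had 8.83% and 7.14%, then 10.8% and 12.4%. It rested on Kmt2a-203 alone, at 2.48 and 2.18 TPM in the first table. In Kat5 a 156-base exon had 44.1% and 38.8%, then 56.3% and 52.1%. In Chd5 a 111-base exon was in most transcripts, with 90.6% and 91.5%, then 90.9% and 91.9%. Sirt2 shows an exon on which the tables part. Its 47-base exon at chr7:28767632-28767678 had 27.4% and 28.7% in the first table and 65.7% and 99.9% in the second, and it is not among the 30.

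**Figure D5:**
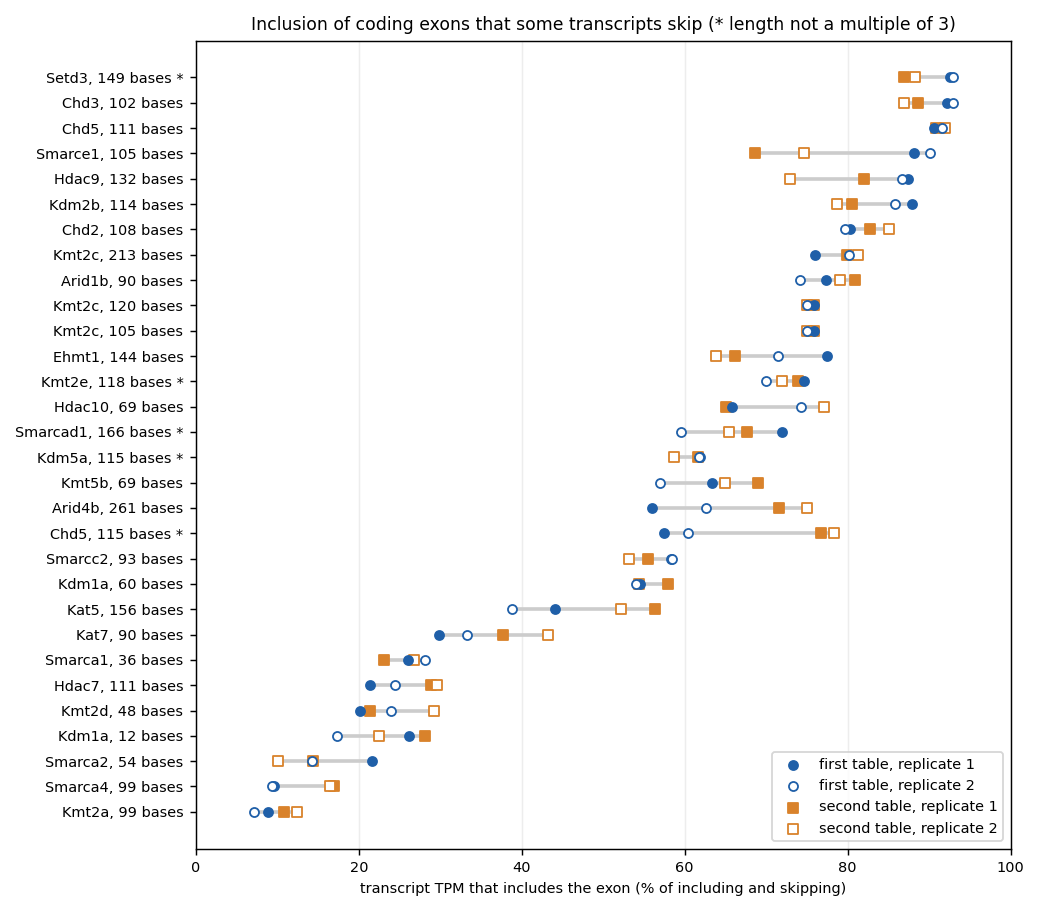
Share of transcript TPM that includes an exon (%) for 30 coding exons that some transcripts skip, in replicate 1 (filled) and replicate 2 (open) of the first table (circles) and the second table (squares). Kdm1a at 12 bases, Smarca1 at 36 bases and Smarcc2 at 93 bases keep a middle or low inclusion in all 4 estimates, and an asterisk marks 5 exons whose length is not a multiple of 3.

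Some levels may hold reads of a neighbour, since the strand setting of the counting was not given in the sources used here. Exons of 34 of the 94 genes overlap exons of a gene on the opposite strand, and for 16 of them that partner was at or above 1 TPM in both libraries. Among the genes described, these include Kat5 with Rnaseh2c, Kmt2e with Srpk2, Sirt3 with Psmd13 and Ric8a, Smarcc1 with Dhx30 and Smarcd3 with Chpf2. They also include genes of lower level whose partner was higher in both libraries. These were Kdm1b with Dek (17.3 and 18.99 TPM), Hdac7 with Slc48a1 (55.5 and 52.4 TPM) and Suv39h2 with Dclre1c. Kdm1b and Suv39h2 enter the ratios to Kdm1a and Suv39h1 given above, and the part of neighbour reads in those ratios was not tested. The single partner over Chd9, Gm45641, had 0.41 TPM in replicate 1.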

How the data were processed

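Total RNA of 2 hippocampal samples was sequenced. The authors deposited, for each sample, a gene table and a transcript table with expected counts and TPM (first table) and a second transcript table with estimated counts and TPM. The deposited notes name mm10 and GENCODE M21, and the columns of the file headers are those that RSEM and kallisto write. Which programs and versions were run, and whether counting used strand, is not given in the sources used here. Members were taken by symbol, and the members and lists were chosen with earlier results of these data known. From the files, the second table was summed per gene. Expected counts were rounded, scaled by TMM (edgeR 4.0.16) and compared with an exact binomial test (scipy 1.17.1) that was tested on simulated data. DESeq2 1.42.0 gave alternative size factors. Reads were taken as shared where an expected count was off a whole number by over 0.005 and its posterior SD was at least 1% of it. Offsets were 0.5 counts and 0.01 TPM. Values were given for the highest genes of each role, pairs of related genes, genes under 1 TPM and genes that differed between libraries, tables or leading transcripts. That rule took in nearly every member. Transcript labels, exons and exon sequences are from GENCODE M21. ERCC RNA held 0.421% and 0.408% of the counts. Intervals cover counting error only.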

Additional observations from a re-analysis of the deposited data

How the results depend on the processing

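With 2 libraries of 1 group, the data describe levels and cannot test a cause of any difference, and isoform values rest on estimates that share the same reads. The set had 92 expressed genes under the main settings, 93 at a minimum of 0.5 TPM, 85 at 5 TPM, 92 in the second table and 89 on protein-coding transcripts, and 92 with either library alone. The median level was 40.1 TPM in the second table, 53.4 TPM when rescaled over nuclear protein-coding genes, 17.0 TPM on protein-coding transcripts and 13.96 TPM on those with the annotation's basic tag, and 21.5 to 22.2 TPM with 1 library left out. The settings on protein-coding transcripts in these counts and medians, the basic tag, the genes without shared reads and all those on exons were chosen after seeing the data. No gene was apart between libraries under DESeq2 size factors, ERCC totals, no count filter, a mean count of 100, the second table or only genes without shared reads, and 18 were without a fold minimum, since that removes the limit. The median log2 ratio of 0.02 ran from -0.00 (TPM) to 0.06 (ERCC totals). Centring took the genes apart between tables from 73 to 2, as it removes the common shift, and leaving out 1 library gave 77 to 78. The share on transcripts without a protein-coding label was 30.3% in the second table and 10.1% in counts, where length does not enter. The number of pairs at least 1.5-fold apart was 17, with 15 in the second table and 16 on protein-coding transcripts. Single ratios that turned were Smarcd3 over Smarcd1 (1.16) and Kdm3b over Kdm3a (0.895) in the second table, and Hdac5 over Hdac4 (0.690) and Arid4b over Arid4a (0.829) on protein-coding transcripts; the cause was not tested. The number of variable exons was 24 with limits of 10% and 90%, 28 at 10 TPM, and 39 and 40 with only the first or second table. No paired analysis was possible because there is 1 group.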
